A study of Mus musculus with 16 samples.

Results

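The genes of glucose uptake and glycolysis described here are Slc2a4, Hk2, Pfkl, Pfkp, Aldoa, Tpi1, Gapdh, Pgk1, Eno1 and Pkm, the transporter and the glycolytic enzymes of a gene list for this pathway. They are 10 of the 24454 genes of the deposited count table and were taken by name, with no threshold on their values. The list was, however, chosen with earlier results of these data known. Of these 10 members, 9 passed the filter on low counts and were tested. Eno1 had 0 to 8 counts in a library and was not tested.

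In fat, glucose enters the cell through Slc2a4 (GLUT4), a transporter that insulin moves from vesicles to the plasma membrane. Glycolysis then splits glucose into pyruvate: hexokinase traps it as a phosphate, phosphofructokinase commits it to breakdown, aldolase and triose-phosphate isomerase make the triose, and the lower steps yield ATP, NADH and pyruvate. In adipocytes this flux supplies glycerol phosphate and acetyl units for triglyceride, and many of these enzymes have tissue-specific isozymes. The measurements below are of RNA and not of protein, enzyme activity or flux.

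The tissue was frozen gonadal fat from 16-week-old male C57BL/6J mice, lean and kept on chow, from which polyadenylated RNA was sequenced. All mice had abdominal surgery, either subdiaphragmatic vagotomy (sDVX), which cuts the vagus nerve below the diaphragm, or a sham operation. Infusion into the cerebral ventricles by minipump began 4 weeks later and ran for 2 weeks, with SHU9119 at 1 nmol per day or with vehicle, and all mice were fed the same calories. SHU9119 is a peptide that blocks the melanocortin receptors of the brain. The 4 groups of 4 libraries were sDVX with SHU9119 (VX_SHU), sDVX with vehicle (VX_Veh), sham surgery with SHU9119 (Sham_SHU) and sham surgery with vehicle (Sham_Veh). The series was titled as a test of whether brain melanocortin signalling acts on fat mass through the vagus apart from calorie intake. Whether a library stands for 1 mouse is not stated in the labels, so the p-values speak of spread among libraries, which may be technical.

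Library totals were 20425295 to 30889052 counts. All 10 adipocyte markers, among them Adipoq and Plin1, were present in each library, and their summed level ran from 14954 CPM (counts scaled to a common library size with TMM factors) in VX_Veh1 to 46153 CPM in Sham_Veh3. Markers of epididymis or of testis and sperm reached at least 500 CPM in 6 libraries (VX_SHU4, VX_Veh4, Sham_SHU3, Sham_SHU4, Sham_Veh3 and Sham_Veh4). The 14 ciliated epithelium markers summed to 9.99 to 226 CPM in VX_SHU, 23.0 to 1324 in VX_Veh, 15.2 to 201 in Sham_SHU and 11.2 to 490 in Sham_Veh. None of 52 exact permutation tests of 13 marker lists in the 4 comparisons of single groups passed adjustment (lowest adjusted p = 0.495), and 2 had an unadjusted p below 0.05. The smallest p that 4 against 4 libraries allow is 0.0286, so a single list could not pass adjustment over 52 tests. These tests therefore do not show that the groups had like composition. The 8 progenitor and stromal markers summed to 2697 to 3334 CPM in VX_SHU and 1740 to 2522 in VX_Veh, and to 2974 to 3672 in Sham_SHU and 2242 to 2952 in Sham_Veh, so the infusions did not overlap after either surgery. In whole tissue, fewer cells of a type and less RNA per cell cannot be told apart.

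Per kilobase of transcript, Aldoa was the most abundant member, with a mean of 977 CPM per kilobase over the 16 libraries. Gapdh averaged 271, Tpi1 249, Pkm 228 and Pgk1 117 CPM per kilobase. Slc2a4 averaged 87.3, Hk2 35.5, Pfkl 34.0 and Pfkp 19.4 CPM per kilobase, so these means stood below those of the other tested members. They are levels of single genes and not of whole steps. The ranges of Gapdh (163 to 499), Tpi1 (193 to 407) and Pkm (143 to 405) overlapped, as did those of Hk2 (16.0 to 49.5) and Pfkl (19.8 to 57.0). Pfkp (14.2 to 25.5) overlapped both of these at their low ends, and Slc2a4 (44.5 to 127) overlapped Pgk1 (82.6 to 168).

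**Figure D1:**
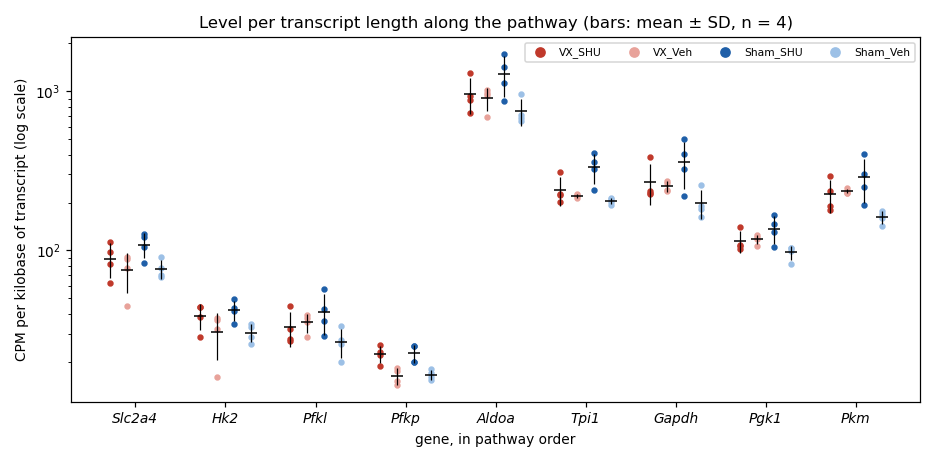
Level of each tested member in CPM per kilobase of transcript on a log axis, in pathway order. Points are libraries coloured by group and bars are the mean ± SD (n = 4). Aldoa stands highest at a mean of 977 and Pfkp lowest at 19.4.

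Several members share sequence with other loci, which limits how far these levels can be compared. Of the 50-base windows of the transcript, 82.5% for Gapdh and 68.0% for Pgk1 also occurred in annotated transcripts of other loci, such as Gm7336 for Gapdh and Pgk1-rs7 for Pgk1. The share was 30.5% for Pkm, 13.9% for Aldoa, 7.51% for Tpi1 and 0.05% for Pfkl, and it was 0 for Slc2a4, Hk2 and Pfkp. The sources used here give neither the read length nor the treatment of reads with several matches, so the levels of Gapdh and Pgk1 are uncertain.

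Eno1 (chr4:150236708-150248879 on mm10, plus strand) encodes alpha-enolase, the enzyme that makes phosphoenolpyruvate. It was listed at 0, 0, 1 and 1 counts in VX_SHU libraries 1 to 4 and 0, 1, 2 and 2 in VX_Veh. The counts were 0, 1, 2 and 2 in Sham_SHU and 0, 0, 1 and 8 in Sham_Veh. Among its windows, 72.2% occurred elsewhere, first of all in the intronless copy Eno1b. Eno1b had 240 to 546 counts, or 5.24 to 12.6 CPM per kilobase, which is below the level of every tested member. Where the reads of alpha-enolase were counted was not tested. The table therefore gives no usable measure of alpha-enolase. The other enolase genes Eno2 and Eno3 were tested, and no share among enolases was computed.

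**Figure D2:**
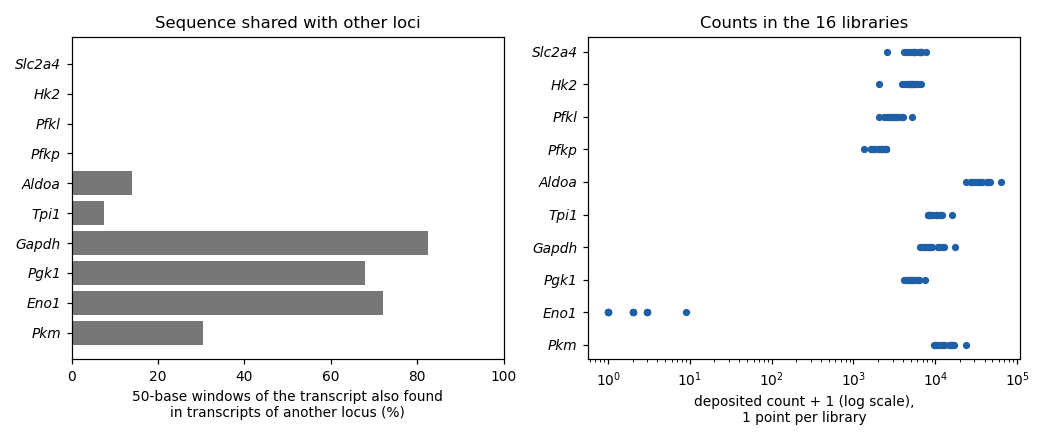
Left, the percent of 50-base windows of each member's transcript that also occur in a transcript of another locus. Right, the deposited count plus 1 in each of the 16 libraries on a log axis. Gapdh (82.5%), Eno1 (72.2%) and Pgk1 (68.0%) share most of their sequence, and Eno1 alone lies under 10 counts.

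Slc2a4 (chr11:69942286-69948216 on mm10, minus strand) stood at 247, 206, 286 and 157 CPM in VX_SHU libraries 1 to 4, against 112, 230, 223 and 195 in VX_Veh. It stood at 306, 321, 209 and 264 CPM in Sham_SHU, against 171, 176, 229 and 195 in Sham_Veh. After sham surgery 3 of 4 SHU9119 libraries were above every vehicle library, and the groups overlapped through Sham_SHU3 and Sham_Veh3. The log2 fold change of SHU9119 was 0.51 ± 0.226 (SE) after sham surgery and 0.24 ± 0.226 after sDVX, and neither passed (edgeR quasi-likelihood test with Benjamini-Hochberg adjustment, adjusted p = 0.235 and 0.685).

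Hk2 (chr6:82725025-82774454, minus strand), the insulin-responsive hexokinase of fat and muscle, stood at 212, 158, 245 and 243 CPM in VX_SHU, against 88.3, 201, 176 and 208 in VX_Veh. It stood at 229, 273, 191 and 240 CPM in Sham_SHU, against 157, 143, 183 and 189 in Sham_Veh. VX_Veh1 was far below the other libraries. The sham groups did not overlap, but Sham_SHU3 at 190.9 lay just above Sham_Veh4 at 188.8, and they did overlap with DESeq2 size factors. The log2 fold change of SHU9119 was 0.47 ± 0.227 after sham surgery and 0.35 ± 0.227 after sDVX (edgeR adjusted p = 0.265 and 0.515).

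**Figure D3:**
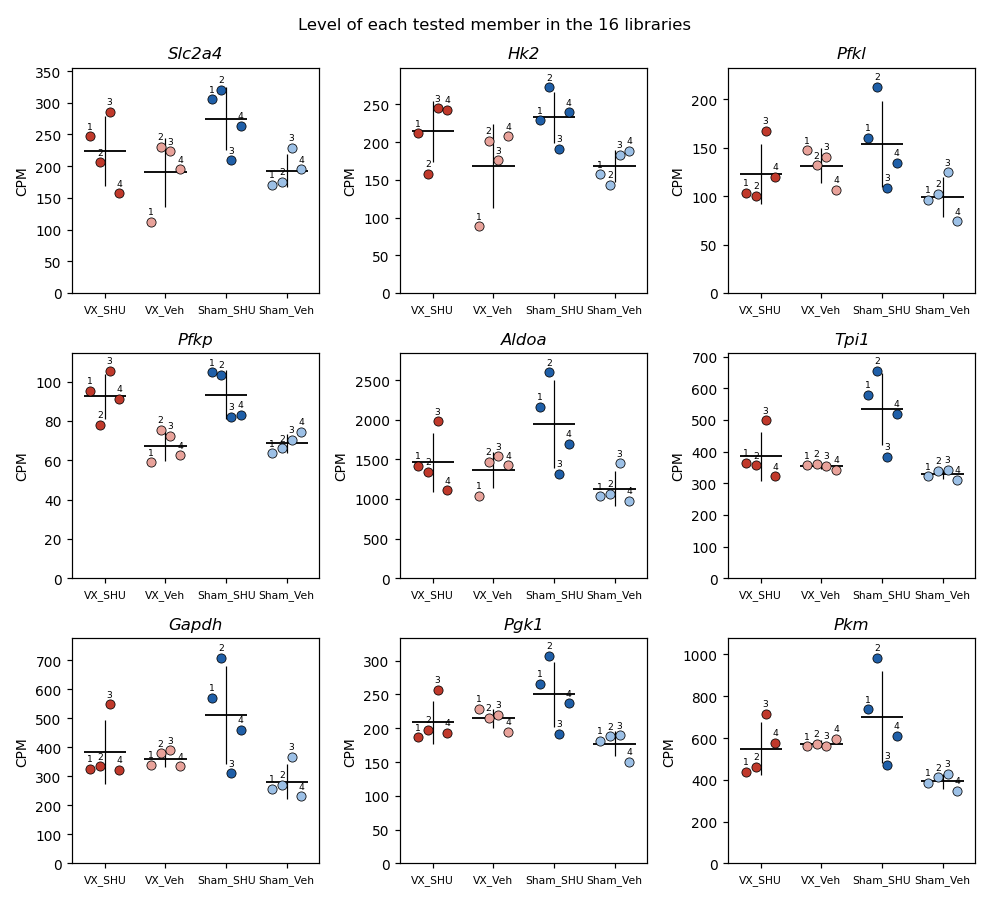
CPM of the 9 tested members in each library, numbered by replicate, with the group mean and SD (n = 4). In 8 of the 9 panels the highest point is Sham_SHU2, and the Pfkp points of both SHU9119 groups lie above those of their vehicle groups.

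Phosphofructokinase has a liver-type subunit, Pfkl, and a platelet-type subunit, Pfkp. Their promoters from RefSeq (GRCm38.p6, 300 bases around the annotated start, 5′ to 3′ on the gene's strand) are shown because these 2 isozymes catalyse the same step. Capitals mark the letters ACGTG or GCGTG on either strand, the core of the element bound by hypoxia-inducible factors, known regulators of glycolytic genes. The windows are chr10:78009758-78010057 for Pfkl and chr13:6648722-6649021 for Pfkp, both on the minus strand.
Pfkl: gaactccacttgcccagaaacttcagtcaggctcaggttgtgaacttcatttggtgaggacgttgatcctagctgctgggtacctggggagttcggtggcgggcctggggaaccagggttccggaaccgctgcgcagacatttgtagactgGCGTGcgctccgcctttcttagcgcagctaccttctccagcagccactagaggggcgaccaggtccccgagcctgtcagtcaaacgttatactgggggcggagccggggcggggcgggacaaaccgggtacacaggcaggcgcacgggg
Pfkp: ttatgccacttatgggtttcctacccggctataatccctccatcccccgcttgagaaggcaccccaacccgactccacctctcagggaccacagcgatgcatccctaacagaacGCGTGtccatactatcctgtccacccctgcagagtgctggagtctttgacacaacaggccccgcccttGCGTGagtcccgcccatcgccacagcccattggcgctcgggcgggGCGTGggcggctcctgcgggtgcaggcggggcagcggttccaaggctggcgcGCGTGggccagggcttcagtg
The core occurred 1 time in the Pfkl window and 4 times in the Pfkp window. It occurred in 43.8% of 32851 promoter windows of mouse genes, and a match does not show binding.

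Pfkl (chr10:77986947-78009807, minus strand) stood at 103, 100, 167 and 120 CPM in VX_SHU, against 147, 132, 141 and 106 in VX_Veh. It stood at 160, 213, 108 and 134 CPM in Sham_SHU, against 96.3, 102, 124 and 74.0 in Sham_Veh. The infusions overlapped after either surgery, and after sDVX only VX_SHU3 exceeded the vehicle libraries. The log2 fold change of SHU9119 was 0.63 ± 0.220 after sham surgery and -0.10 ± 0.219 after sDVX (edgeR adjusted p = 0.152 and 0.892).

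Pfkp (chr13:6579874-6649060, minus strand) stood at 95.2, 77.9, 106 and 91.3 CPM in VX_SHU, against 59.0, 75.4, 72.4 and 62.5 in VX_Veh. It stood at 105, 104, 82.1 and 83.0 CPM in Sham_SHU, against 63.5, 66.1, 70.5 and 74.5 in Sham_Veh. Every SHU9119 library was above every vehicle library, whichever the surgery, as in 0.24% of all genes tested. The group means were 92.5 ± 11.4 CPM in VX_SHU and 67.3 ± 7.80 in VX_Veh, and 93.4 ± 12.5 in Sham_SHU and 68.7 ± 4.89 in Sham_Veh (SD, n = 4). That was a log2 fold change of 0.44 ± 0.114 after sham surgery (edgeR adjusted p = 0.0852) and 0.46 ± 0.114 after sDVX (edgeR adjusted p = 0.427).

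The 3′ part of the Pfkp transcript overlaps exons of Pitrm1, a mitochondrial peptidase gene on the opposite strand, over 748 of 4145 bases, and the strand setting of the counting is unknown. Pitrm1 itself had a log2 fold change of SHU9119 of 0.26 ± 0.116 after sham surgery and 0.03 ± 0.116 after sDVX (edgeR adjusted p = 0.245 and 0.948). How many reads the pair could share was not tested.

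Aldoa (chr7:126795234-126800994, minus strand), the muscle-type aldolase found in most tissues, stood at 1414, 1340, 1979 and 1108 CPM in VX_SHU, against 1036, 1472, 1539 and 1426 in VX_Veh. It stood at 2162, 2599, 1320 and 1695 CPM in Sham_SHU, against 1032, 1068, 1450 and 977 in Sham_Veh. The sham groups overlapped only through Sham_SHU3 and Sham_Veh3. SHU9119 gave a log2 fold change of 0.78 ± 0.226 after sham surgery and 0.09 ± 0.225 after sDVX (edgeR adjusted p = 0.103 and 0.904).

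Tpi1 (chr6:124810586-124814158, minus strand) encodes the isomerase of the triose phosphates and had the smallest p of the members for SHU9119 after sham surgery. Its promoter (chr6:124814109-124814408, same source) is shown because it alone, among the 9 members with a window, holds no hypoxia element core.
Tpi1: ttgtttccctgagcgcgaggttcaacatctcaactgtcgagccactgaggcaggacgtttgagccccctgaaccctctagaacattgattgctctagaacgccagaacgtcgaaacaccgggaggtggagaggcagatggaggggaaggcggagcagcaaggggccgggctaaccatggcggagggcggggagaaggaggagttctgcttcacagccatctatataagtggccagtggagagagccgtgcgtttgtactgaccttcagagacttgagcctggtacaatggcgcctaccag
Tpi1 stood at 364, 356, 498 and 322 CPM in VX_SHU, against 356, 361, 355 and 342 in VX_Veh. It stood at 578, 654, 384 and 520 CPM in Sham_SHU, against 322, 338, 342 and 310 in Sham_Veh. All Sham_SHU libraries were above all Sham_Veh libraries, while after sDVX VX_SHU3 was far above the vehicle libraries and the other 3 lay beside or below them. On the log2 scale, the difference of SHU9119 from vehicle was 0.70 ± 0.150 after sham surgery (edgeR adjusted p = 0.0687) and 0.12 ± 0.149 after sDVX (edgeR adjusted p = 0.767).

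Gapdh (chr6:125161852-125166467, minus strand), the NADH-producing dehydrogenase often used as a reference gene, stood at 326, 334, 548 and 324 CPM in VX_SHU, against 339, 379, 389 and 335 in VX_Veh. It stood at 570, 708, 310 and 461 CPM in Sham_SHU, against 258, 271, 368 and 232 in Sham_Veh. The sham groups overlapped through Sham_SHU3 and Sham_Veh3, and within VX_SHU library 3 stood apart. SHU9119 gave a log2 fold change of 0.86 ± 0.238 after sham surgery, the largest of the members, and 0.09 ± 0.236 after sDVX (edgeR adjusted p = 0.097 and 0.918).

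Pgk1 (chrX:106187100-106203699, plus strand), whose enzyme makes the first ATP of the lower pathway, stood at 187, 197, 256 and 194 CPM in VX_SHU, against 228, 216, 220 and 195 in VX_Veh. It stood at 266, 307, 191 and 237 CPM in Sham_SHU, against 181, 188, 190 and 151 in Sham_Veh. The sham groups did not overlap, although Sham_SHU3 at 191 CPM and Sham_Veh3 at 190 CPM were close. On the log2 scale, the difference of SHU9119 from vehicle was 0.50 ± 0.138 after sham surgery and -0.04 ± 0.138 after sDVX (edgeR adjusted p = 0.0979 and 0.934).

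Pkm (chr9:59656576-59679372, plus strand), the pyruvate kinase of muscle and most other tissues, stood at 437, 462, 715 and 578 CPM in VX_SHU, against 561, 571, 561 and 596 in VX_Veh. It stood at 738, 985, 470 and 610 CPM in Sham_SHU, against 387, 411, 429 and 348 in Sham_Veh. The Sham_SHU libraries were all above the Sham_Veh libraries, and so were the VX_Veh libraries. SHU9119 gave a log2 fold change of 0.83 ± 0.196 after sham surgery and -0.06 ± 0.195 after sDVX (edgeR adjusted p = 0.0713 and 0.933). The counts are per gene and do not separate the M1 and M2 splice forms.

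Across the members, SHU9119 after sham surgery gave a positive log2 fold change for all 9, from 0.44 for Pfkp to 0.86 for Gapdh, with a median of 0.63, against -0.06 over all 16682 genes tested. Of all genes, 43.2% were positive. Because the members were chosen with earlier results of these data known, the pattern of the members is a description. None of the 9 passed the edgeR test, and 0.114% of all genes did. In this comparison 8 of the 9, all but Hk2, had an unadjusted p below 0.05, as did 19.6% of all genes. DESeq2 called 7 members (all but Slc2a4 and Hk2), beside 8.2% of genes, and limma-voom with sample weights called 9, beside 23.2%. In 5 members (Hk2, Pfkp, Tpi1, Pgk1 and Pkm) all Sham_SHU libraries lay above all Sham_Veh libraries, as in 5.6% of all genes.

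The 4 groups share an estimate of the spread, and the count of members called after sham surgery changed with single libraries of any group but Sham_Veh. Without Sham_SHU3, which held epididymis markers at 1584 CPM and testis markers at 1353 CPM, edgeR called 7 members (Pfkl, Pfkp, Aldoa, Tpi1, Gapdh, Pgk1 and Pkm) and 982 genes in all (5.83%), against 19 with all libraries. Without VX_Veh1 it called 3 members (Pfkp, Tpi1 and Pkm) and 527 genes in all (3.11%), and without VX_SHU3 it called 2 (Tpi1 and Pkm) and 178 genes in all (1.05%). Without Sham_SHU4 (epididymis markers at 3165 CPM) it called 0 members and 0 genes. Without Sham_Veh4 (testis markers at 2781 CPM) it called 0 members and 2 genes in all (0.0119%). With all 6 libraries that held such markers left out, it called 0 members and 0 genes. The part of these markers in the calls was not tested.

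**Figure D4:**
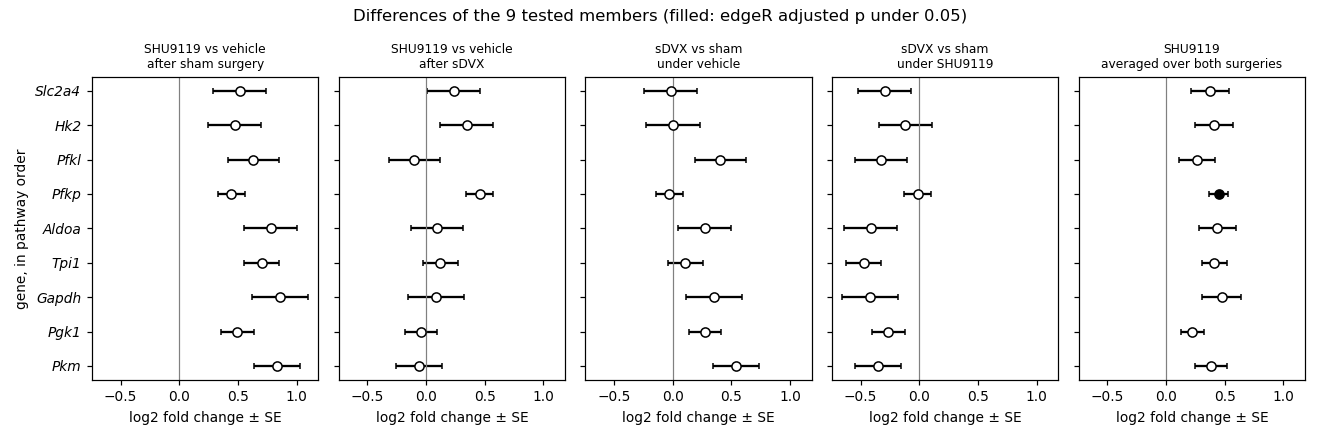
Log2 fold change ± SE of the 9 tested members in 5 comparisons, from the edgeR fit. Filled symbols have an adjusted p below 0.05. After sham surgery all 9 lie between 0.44 and 0.86. After sDVX they lie between -0.10 and 0.46, and the filled symbol is Pfkp averaged over both surgeries.

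After sDVX the infusions overlapped for all members but Pfkp. Log2 fold changes of SHU9119 ran from -0.10 for Pfkl to 0.46 for Pfkp, with a median of 0.09 against -0.02 over all genes. Of the 9 members 6 were positive, beside 46.8% of all genes. No member passed edgeR, beside 0.00599% of all genes, and 1 member, Pfkp, had an unadjusted p below 0.05, as did 11.6% of all genes. DESeq2 called Pfkp, beside 0.372% of genes, and limma-voom called 0 members, beside 0.12%. Over all genes, 2.93% lay wholly above the vehicle libraries, as Pfkp did. For Pgk1 the 95% interval of the difference was -0.34 to 0.26, for Pkm -0.49 to 0.36 and for Tpi1 -0.20 to 0.45. With 4 libraries a group, differences within these intervals were not excluded in either direction.

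Under vehicle, sDVX was compared with sham surgery, which asks what the loss of the vagus did by itself. Log2 fold changes were 0.54 ± 0.196 for Pkm, 0.41 ± 0.219 for Pfkl, 0.35 ± 0.236 for Gapdh, 0.28 ± 0.138 for Pgk1 and 0.27 ± 0.225 for Aldoa. The remaining 4 lay between -0.03 for Pfkp and 0.11 for Tpi1, and the median was 0.27 against 0.01 over all genes. No member and no other gene passed edgeR (0.0% of genes; lowest member adjusted p = 0.608). Pkm had an unadjusted p below 0.05, as did 8% of all genes, and both DESeq2 (0.149% of genes) and limma-voom (0.024%) called 0 members. Pkm, Pgk1 and Tpi1 were above the Sham_Veh libraries in all 4 VX_Veh libraries, which was so for 0.935% of all genes. Pkm stood at 561 to 596 CPM in VX_Veh and 348 to 429 in Sham_Veh, whereas for Tpi1 the nearest values of both groups rounded to 342 CPM.

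Under SHU9119, sDVX gave negative log2 fold changes for all 9 members, from -0.01 for Pfkp to -0.47 for Tpi1, with a median of -0.33 against -0.01 over all genes. Of all genes, 49.1% had a positive value. No member passed edgeR (0.0% of genes), and Tpi1 (-0.47 ± 0.150, edgeR adjusted p = 0.441) had an unadjusted p below 0.05, as did 10.7% of all genes. DESeq2 called 0 members (0.585% of genes) and limma-voom called Tpi1 (4.67% of genes). Every member overlapped between these groups (2.44% of all genes lay wholly below), since VX_SHU3 stood within or above the Sham_SHU range and Sham_SHU3 within or below the VX_SHU range. This comparison shares its Sham_SHU libraries with the first comparison and its VX_SHU libraries with the second.

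Whether SHU9119 acted differently after sDVX was tested as an interaction, the difference between its log2 fold changes after sDVX and after sham surgery. It was negative for 8 of 9 members, while 48.1% of all genes had a positive value. The value was -0.89 ± 0.276 for Pkm, -0.77 ± 0.334 for Gapdh, -0.73 ± 0.310 for Pfkl, -0.69 ± 0.318 for Aldoa, -0.58 ± 0.211 for Tpi1 and -0.54 ± 0.195 for Pgk1. Slc2a4 (-0.28 ± 0.319) and Hk2 (-0.12 ± 0.320) were nearer to 0, and Pfkp was at 0.02 ± 0.161, with a 95% interval of -0.33 to 0.37. No member and no other gene passed edgeR (0.0% of genes; lowest member adjusted p = 0.957 for Pkm), so no member was shown to differ in its response. The first 6 members above had an unadjusted p below 0.05, as did 4.76% of all genes, and DESeq2 (0.0606% of genes) and limma-voom (0.0779%) called 0 members.

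Averaged over both surgeries, Pfkp rose with SHU9119 and was the only member to pass. Its log2 fold change was 0.45 ± 0.0805 (edgeR adjusted p = 0.0301), a 1.37-fold difference, and its 8 SHU9119 libraries lay above the 8 vehicle libraries, which was so for 0.24% of all genes. Among all genes 1.87% passed in either direction and 1.5% passed with a higher level. Tpi1 was at 0.41 ± 0.106 (edgeR adjusted p = 0.06), and the other 7 lay between 0.23 for Pgk1 and 0.47 for Gapdh with adjusted p of 0.0983 to 0.272. DESeq2 called 5 members (Pfkp, Aldoa, Tpi1, Gapdh and Pkm), beside 17.2% of genes, and limma-voom called 6 (Slc2a4, Hk2, Pfkp, Aldoa, Tpi1 and Gapdh), beside 23.4%.

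The call of Pfkp was lost when any of 9 libraries was left out (Sham_SHU1, Sham_SHU2, Sham_SHU4, VX_SHU1, VX_SHU3, Sham_Veh1, Sham_Veh2, Sham_Veh3 or VX_Veh3), with edgeR adjusted p of 0.0592 to 0.075 and a log2 fold change of 0.42 to 0.48. Without Sham_SHU3 the members called were 6 (Pfkp, Aldoa, Tpi1, Gapdh, Pgk1 and Pkm), beside 1612 genes in all (9.58%). Without VX_SHU4 they were 2 (Pfkp and Tpi1), beside 380 genes (2.24%), against 312 with all libraries. Without the 6 libraries that held epididymis or testis markers, edgeR called the same 6 members as without Sham_SHU3, beside 4062 genes in all (24.4%), and Pfkp was at 0.58 (adjusted p = 0.0326). With the ciliated marker sum as a covariate Pfkp was at 0.36 (edgeR adjusted p = 0.305) and no gene passed. That sum averaged 73.3 CPM in VX_SHU and 502 in VX_Veh, and 70.02 in Sham_SHU and 340 in Sham_Veh, and its part in the result was not tested further. The progenitor and stromal sum given above was higher under SHU9119, with no overlap after either surgery, and its part in the Pfkp result was not tested.

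Averaged over both infusions, the members' differences between sDVX and sham surgery ran from -0.18 ± 0.106 for Tpi1 to 0.09 ± 0.138 for Pkm on the log2 scale. No member passed edgeR or had an unadjusted p below 0.05 (0.0% and 16% of all genes), and DESeq2 (2.52% of genes) and limma-voom (0.671%) called 0 members.

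The members tended to be high or low in the same libraries. Sham_SHU2 was the highest library for 8 of the 9 members and VX_SHU3 for Pfkp. Sham_SHU1, Sham_SHU2, Sham_SHU4 and VX_SHU3 were among the top 4 libraries for 8, 9, 7 and 9 members in that order, and Sham_SHU3 for none. The lowest library was Sham_Veh4 for 6 members (Pfkl, Aldoa, Tpi1, Gapdh, Pgk1 and Pkm) and VX_Veh1 for 3 (Slc2a4, Hk2 and Pfkp). VX_Veh1 also had the lowest adipocyte marker sum and the highest ciliated sum, and Sham_Veh4 the highest testis and sperm sum at 2781 CPM. The part of these tissues in the members' levels was not tested.

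As a description over the 16 libraries, each member's log2 CPM correlated with the mean of the other members at a Pearson r of 0.965 for Gapdh, 0.961 for Aldoa and 0.917 for Tpi1. The r was 0.865 for Pkm, 0.863 for Pgk1, 0.804 for Pfkl, 0.763 for Slc2a4, 0.74 for Pfkp and 0.611 for Hk2, lowest for the uptake steps and Pfkp. The points share the group differences given above. Among 11695 other genes with a mean of at least 5 CPM, those whose pattern was most like the members' mean were Pgd, the 6-phosphogluconate dehydrogenase of the pentose phosphate pathway (r = 0.981), Ppp2r5b, a regulatory subunit of protein phosphatase 2A (0.978), and Mpc1, a subunit of the mitochondrial pyruvate carrier (0.976). Pgam1, the phosphoglycerate mutase between Pgk1 and enolase (0.974), and Ncln, an endoplasmic reticulum membrane protein (0.973), followed. Without Sham_SHU1 and Sham_SHU2 these 5 had r of 0.947 to 0.971.

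Shares of isozymes were computed for glucose transporters, hexokinases, phosphofructokinases, aldolases and lactate dehydrogenases. As a share of summed CPM per kilobase, Slc2a4 averaged 67.4% of 7 glucose transporters, Hk2 65.1% of 4 hexokinases and Aldoa 97.9% of 3 aldolases over the 16 libraries. Pfkl averaged 49.9%, Pfkp 28.9% and the muscle type Pfkm 21.2% of phosphofructokinase. The Pfkp share was 32.5 ± 2.39% in VX_SHU and 24.8 ± 2.44% in VX_Veh (SD, n = 4), with no overlap (29.5 to 35.3% against 21.5 to 26.8%). It was 29.5 ± 2.24% in Sham_SHU and 28.8 ± 2.39% in Sham_Veh, which overlapped. The exact two-sided permutation p after sDVX was 0.0286, the smallest that 70 assignments allow, and the adjusted p was 0.514, the lowest of 24 such tests of 6 shares. A single share at the smallest p could not pass adjustment over 24 tests, so these tests do not show that shares were alike. The Hk2 share was lowest in Sham_Veh4 at 34.2% and in Sham_SHU3 at 48.5%, the libraries with the most testis and sperm markers.

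**Figure D5:**
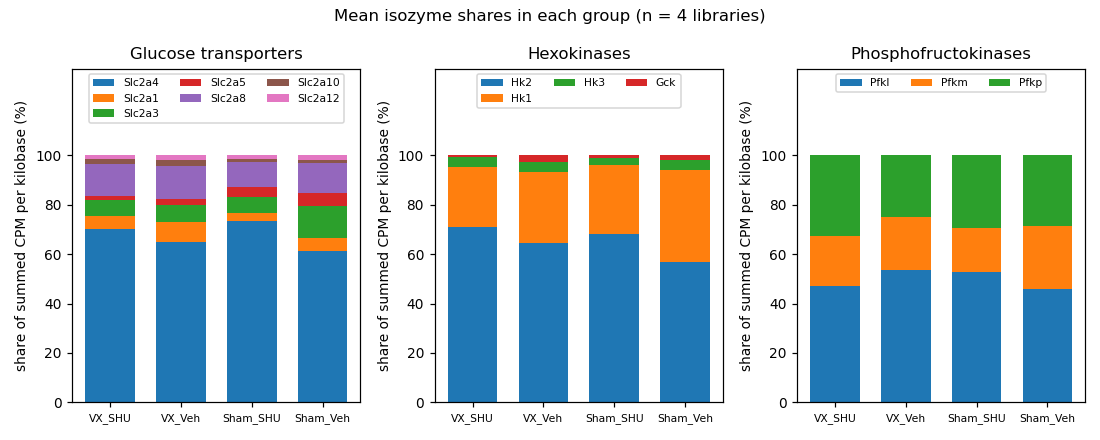
Mean share of each isozyme in the summed CPM per kilobase of its step, for glucose transporters, hexokinases and phosphofructokinases (n = 4 libraries a group). Slc2a4 and Hk2 make up most of their steps, and the Pfkp share is 32.5% in VX_SHU and 24.8% in VX_Veh.

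Of 72 other tested genes of the pathway and its surroundings, 0 passed edgeR in any comparison of single groups. The 72 include Eno1b and 6 germ-cell paralogs of glycolytic enzymes, such as Gapdhs. Of these paralogs 0 had a positive log2 fold change of SHU9119 after sham surgery (median -1.03). For sDVX under vehicle 1 paralog was positive (median -2.86). For SHU9119 after sham surgery 23 of the 72 (31.9%) had an unadjusted p below 0.05, beside 19.6% of all genes. In this comparison DESeq2 called 13 (18.1%, beside 8.2% of the 14364 genes with a DESeq2 adjusted p) and limma-voom 26 (36.1%, beside 23.2% of all genes). For SHU9119 after sDVX, 5 of the 72 (6.94%) had an unadjusted p below 0.05, beside 11.6% of all genes, and DESeq2 and limma-voom called 0 (0.372% and 0.12% of the genes each adjusted). For sDVX under vehicle the unadjusted count was 8 (11.1%, beside 8% of all genes), and both other tools called 0 (0.149% and 0.024%). For sDVX under SHU9119 it was 8 (11.1%, beside 10.7%), and DESeq2 called 1 (1.39%, beside 0.585%) and limma-voom 4 (5.56%, beside 4.67%). After sham surgery, 3 of 13 other glycolytic enzymes had a positive log2 fold change of SHU9119 (median -0.42), among them Pgam1 at 0.57 ± 0.139 (edgeR adjusted p = 0.0771). In this comparison 43.2% of all genes were positive. Of 16 genes that handle lactate and pyruvate 12 were positive (median 0.67), of 6 other glucose transporters 1 (median -0.32), of 16 regulators 7 (median -0.07) and of 14 genes of Slc2a4 vesicle traffic 10 (median 0.04). In Sham_Veh the highest library was far above the group median for Hk1 (244 against 52.8 CPM) and Pgam2 (66.4 against 3.30). The same held for Slc2a3 (223 against 34.0) and Slc2a5 (93.1 against 5.36), but not for Eno2 (6.73 against 5.96) or Eno3 (19.5 against 16.3). The part of such libraries in the negative values was not tested. In the traffic list, Vamp2, the vesicle SNARE of Slc2a4 vesicles, was at -0.33 ± 0.0784 and the small GTPase gene Rhoq at 0.43 ± 0.112 (edgeR adjusted p = 0.0736 and 0.0855). After sDVX the medians of these 5 lists lay between -0.20 and 0.12, and the smallest p went to Slc2a4rg-ps (-0.45 ± 0.123), Eno3 (-0.40 ± 0.162) and Trarg1, which regulates Slc2a4 traffic (0.66 ± 0.279; edgeR adjusted p = 0.427 for each).

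For sDVX under vehicle the 3 smallest p in these lists belonged to Gpi1, the glucose phosphate isomerase (0.25 ± 0.102), Lnpep, the aminopeptidase of Slc2a4 vesicles (-0.33 ± 0.134), and Gapdhs, the sperm paralog of Gapdh (-2.74 ± 1.14), each with an edgeR adjusted p of 0.608. The Gapdhs value was -0.47 without Sham_Veh4. Under SHU9119 they belonged to Vamp2 (0.28 ± 0.0784), Pgam1 (-0.37 ± 0.139) and Aldoart1, a retrogene of Aldoa (-1.24 ± 0.490), with edgeR adjusted p of 0.432 to 0.462.

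Averaged over both surgeries, 2 of the 72 genes (2.78%) passed edgeR, beside 1.87% of all genes, and both fell with SHU9119. DESeq2 called 25 (34.7%, beside 17.2% of the genes with a DESeq2 adjusted p) and limma-voom 28 (38.9%, beside 23.4% of all genes). Eno3, the muscle-type enolase, averaged 13.9 ± 2.54 CPM in VX_SHU and 18.4 ± 1.62 in VX_Veh, and 11.4 ± 2.63 in Sham_SHU and 17.0 ± 1.68 in Sham_Veh (SD, n = 4). Its log2 level fell by 0.49 (SE 0.114), with an edgeR adjusted p of 0.0491. Slc2a4rg-ps, a pseudogene of the gene whose human protein binds the SLC2A4 promoter, averaged 8.60 ± 0.423 CPM in VX_SHU and 11.8 ± 1.10 in VX_Veh, and 7.82 ± 0.430 in Sham_SHU and 10.8 ± 1.91 in Sham_Veh. It fell by 0.46 (SE 0.0871, edgeR adjusted p = 0.0325). The Eno3 call held without Sham_SHU3, VX_SHU4 or VX_Veh4 and was lost without any of the other 13 libraries (adjusted p up to 0.108) and with no filter on low counts (adjusted p = 0.0599). The Slc2a4rg-ps call was lost without any of the 9 libraries named above for Pfkp (adjusted p up to 0.0839), and both were lost with the ciliated covariate (adjusted p = 0.375 and 0.305).

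RefSeq promoter windows were found for 9 of the 10 members, and Slc2a4 had none. They made 14 windows, some of which overlap within a gene. Their GC content was 52.7 to 69.0%, and no background of like GC content was computed. The hypoxia element core was in 11 of these windows, beside 43.8% of all windows, and in at least 1 window of 8 members. No share per gene was computed for any of these motifs. The GC box GGGCGG was in 10 windows and 8 members, and in 35.7% of all 32851 windows. The palindromic E-box CACGTG, a form bound by Usf1 and related factors, was in 0 of the 14 windows and in 7.15% of all. Both strands were searched. Pfkp had 4 core matches, Gapdh 3 and Tpi1 none, and no background was computed for the number of matches. The data do not bear on whether a factor bound there.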

How the data were processed

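The RNA of 16 gonadal fat libraries was analysed from a table of counts per gene that the authors deposited, with genes given by Entrez number. Per the submitters' processing notes, bcl2fastq, TopHat and edgeR were used with the mouse build mm10, with no versions. For the counting tool, annotation, strand setting and read length, the entry is "not given in the sources used here". Of 24454 gene numbers, 24374 matched a symbol in RefSeq GRCm38.p6. Library totals were 20425295 to 30889052 counts, and the tested members had 1356 to 63105 counts in a library. The closest pair of replicates differed by more than sampling noise (chi-square of 11.8 per degree of freedom).

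Counts were fitted with edgeR 4.0.16 in R 4.3.3 (TMM, filterByExpr, robust quasi-likelihood) over all 16 libraries with a mean for each group, which left 12 residual degrees of freedom. Benjamini-Hochberg adjustment ran over 16682 genes, with a threshold of 0.05. Shares of genes called by DESeq2 are of those it gave an adjusted p, from 5357 for sDVX under vehicle to 16215 for the averages. The 72 other pathway genes were counted in full for every tool. SE is the log2 fold change divided by the square root of F, and 95% intervals use the t distribution with 12 degrees of freedom. Alternatives were DESeq2 1.42.0, limma-voom 3.58.1 with sample weights, DESeq2 size factors, no filter, a non-robust fit, a replicate block, only the groups compared, and each library left out. After seeing the data, 3 were added: leaving out 6 libraries whose epididymis or testis markers summed to 500 CPM or more, the ciliated marker sum as a covariate, and adding the Eno1 and Eno1b rows. Isozyme shares and marker sums were compared by exact two-sided permutation tests with SciPy 1.17.1. Lengths were those of APPRIS principal transcripts. Only the main edgeR fit was tested on simulated data, and the simulation held no libraries with markers of other tissues.

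Named were all members, other pathway genes past the threshold or among the 3 smallest p of a comparison of single groups, and the 5 genes most like the members' mean. Members and lists were chosen with earlier results of these data known. The libraries share replicate numbers across groups, but correlations of same-numbered libraries ran from -0.689 to 0.676, so the numbers were not taken as pairs.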

Additional observations from a re-analysis of the deposited data

Results flagged for a closer look

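In VX_SHU3, Gapdh stood at 548 CPM, against 324 to 334 in the other 3 VX_SHU libraries, and Pgk1 at 256 CPM, against 187 to 197. In Sham_SHU3, Hk2 made up 48.5% of hexokinase, against 73.3 to 75.8% in the other 3 Sham_SHU libraries. Aldoa made up 98.1% of aldolase in VX_SHU2, against 99.6 to 99.9% in the rest of its group, and 91.4% in VX_Veh1, against 98.6 to 99.6%. These 5 values stood far from their group by Dixon's test. Over the 60 groups of 4 values examined, chance gives such a value in about 1 in 20.

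For Tpi1, all VX_SHU libraries were below the Sham_SHU mean of 534 CPM, while all VX_Veh libraries were above the Sham_Veh mean of 328 CPM. The difference between the sDVX effects under SHU9119 and under vehicle was -0.58 ± 0.211 (SE), which did not pass the edgeR interaction test (adjusted p = 0.979).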

How the results depend on the processing

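Counts of members called moved with the test: DESeq2 called 7 for SHU9119 after sham surgery, 1 after sDVX and 5 averaged over both surgeries, and limma-voom called 9, 0 and 6 in these comparisons and 1 for sDVX under SHU9119. With the edgeR test averaged over both surgeries, 6 members were called without the libraries that held epididymis or testis markers and 0 with the ciliated covariate. With the replicate block, which is not a pairing the design supports, 0 members were called (Pfkp 0.45, adjusted p = 0.0665) and no gene of the table passed in any comparison. With 1 library left out, the members called ranged from 0 to 7 for SHU9119 after sham surgery, 0 to 6 averaged over both surgeries and 0 to 0 in each other comparison. Genes called over the whole table numbered 19 after sham surgery (14 with no filter, 1 with only the 2 groups, 0 to 982 with 1 library left out, 0 without the marker libraries) and 312 averaged over both surgeries (393 with DESeq2 size factors, 167 with no filter, 3 to 1612 with 1 library left out, 4062 without the marker libraries). No scaling moved the median of all genes by more than 0.1. For the changes of call and sign in these paragraphs, the cause was not tested.

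None of the values that changed sign was called, and the log2 fold changes among them reached 0.28 in size. Under SHU9119 after sDVX these were Slc2a4 (-0.0037), Aldoa (-0.19), Tpi1 (-0.0042) and Gapdh (-0.21) with the ciliated covariate, and Aldoa (-0.061) and Gapdh (-0.10) with limma-voom. For sDVX under vehicle they were Slc2a4 with no filter (0.0053), limma-voom (0.28), the marker libraries left out (0.13) and the ciliated covariate (0.018), Hk2 with DESeq2 or its size factors (-0.0029) and the replicate block (-0.025), and Pfkp with limma-voom (0.13) and the marker libraries left out (0.10). For sDVX under SHU9119 they were Pfkp with no filter (0.0068) and only 2 groups (0.0). For the interaction they were Pfkp with limma-voom (-0.18), the marker libraries left out (-0.24) and the ciliated covariate (-0.0074). For sDVX averaged over both infusions, limma-voom gave Hk2 0.011, Pfkl -0.0032, Pfkp 0.042, Aldoa 0.009 and Pgk1 -0.046. The marker libraries left out gave Pfkl -0.032, Pgk1 -0.063 and Pkm -0.072, and the ciliated covariate gave Gapdh 0.0067. Without division by length the Aldoa share differed by -0.0822 percentage points for sDVX under vehicle, and without TMM the adipocyte sum by 1899 CPM for sDVX under SHU9119.

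With 1 library left out, SHU9119 after sDVX gave Aldoa -0.0885 to 0.21, Tpi1 -0.027 to 0.20, Gapdh -0.14 to 0.16, Pgk1 -0.16 to 0.0062 and Pkm -0.22 to 0.032. For sDVX under vehicle the ranges were -0.12 to 0.19 for Slc2a4, -0.11 to 0.24 for Hk2 and -0.085 to 0.053 for Pfkp. For sDVX under SHU9119 they were -0.19 to 0.0009 for Hk2 and -0.083 to 0.063 for Pfkp, and for the interaction -0.056 to 0.10 for Pfkp. Averaged over both infusions, sDVX gave Hk2 -0.12 to 0.067, Pfkl -0.053 to 0.14, Pfkp -0.055 to 0.028, Aldoa -0.16 to 0.015, Gapdh -0.14 to 0.063 and Pgk1 -0.05 to 0.060. In percentage points, the Slc2a4 share ranged from -2.88 to 7.62 for sDVX under vehicle and -8.18 to 0.765 under SHU9119, the Hk2 share from -3.39 to 5.69 under SHU9119, and the Pfkp and Aldoa shares from -0.233 to 1.70 and -0.177 to 2.22 for SHU9119 after sham surgery. For sDVX the Aldoa share ranged from -1.35 to 1.93 under vehicle and the Ldha share of lactate dehydrogenase from -4.66 to 7.80 under vehicle and -7.18 to 2.79 under SHU9119. Each tested member had at least 1356 counts in every library. Eno1 had at most 8 and was not compared, and where the reads of alpha-enolase were counted was not tested.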
